A study of Mus musculus with 12 samples.

Results

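Keratins are the intermediate filament proteins of epithelial cells, and their genes are described here across the prostates and 1 tumor of a mouse prostate cancer study. The members were all gene symbols made of Krt, a number and at most 1 letter, which left out the keratin-associated protein genes. They numbered 52 of the 24421 genes with values. RNA sequencing was done on 12 libraries from TRAMP mice, which express the SV40 T antigens in prostate epithelium under the probasin promoter, and from wild type C57BL/6 mice. TRAMP mice (C57BL/6-Tg(TRAMP)8247Ng/J) on AIN93M diet were sampled at 24 weeks of age (2 libraries, numbered 0 and 2) and at 16 weeks (2 libraries). Another 2 libraries at each age came from TRAMP mice whose AIN93M diet held phenethyl isothiocyanate (PEITC) at 0.05% by weight (w/w), an isothiocyanate released by cruciferous vegetables. Wild type mice on AIN93M diet gave 2 at 24 weeks and 1 at 16 weeks. These 11 libraries came from ventral and dorsolateral prostate. The last library came from 1 tumor of a 24-week TRAMP mouse on AIN93M diet, whose lobe is not known. The labels do not say how many animals made a library, so the p-values measure the spread between these libraries only, and the groups with 1 library carry no error of their own.

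Keratins form filaments only as pairs of an acidic type I and a basic type II protein. Simple epithelia such as the secretory luminal layer of the prostate pair Krt8 with Krt18 or Krt19, and the basal layer beneath it pairs Krt5 with Krt14 or Krt15. Krt6a, Krt16 and Krt17 are low in most resting epithelia and are known for their induction in wounded, stressed or hyperproliferative epithelium. The ratio of basal to luminal keratins is a common description of the makeup of prostate epithelium.

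The keratin genes lie in 2 clusters in the mouse genome (mm10, GENCODE M21 annotation, in which 51 of 52 symbols were matched). The type I cluster on chromosome 11, from 99232761 to 100269871, holds 27 members, and the cluster on chromosome 15, from 101347444 to 102032027, holds 24: the type II genes and the type I gene Krt18. Genes of different layers are direct neighbours there. Krt6a (ENSMUSG00000058354.7, chromosome 15, 101689910 to 101694307, minus strand) is 12.8 kb from Krt5 (ENSMUSG00000061527.7, 101707070 to 101712898, minus strand). Krt8 (ENSMUSG00000049382.10, 101996698 to 102004482, minus strand) and Krt18 (ENSMUSG00000023043.7, 102028180 to 102032027, plus strand) lie 23.7 kb apart, and Krt15 (ENSMUSG00000054146.8, chromosome 11, 100131758 to 100135928, minus strand) is 4.88 kb from Krt19 (ENSMUSG00000020911.14, 100140810 to 100148665, minus strand). The remaining named members of the 3 groups are on the minus strand of chromosome 11: Krt14 (ENSMUSG00000045545.8) from 100203162 to 100207548, Krt16 (ENSMUSG00000053797.10) from 100246091 to 100248902 and Krt17 (ENSMUSG00000035557.9) from 100256217 to 100261029. No other protein-coding gene lies between the members of these pairs of neighbours.

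RefSeq promoters (GRCm38.p6, 250 bases before to 50 bases after the start) are shown for Krt5, the basal keratin with the largest difference between TRAMP and wild type, and for Krt8 and Krt18, the luminal pair on the same chromosome. Among the 9 luminal, basal and stress keratins, they are the ones with a RefSeq start within 200 bases of the GENCODE start. Capitals mark matches on either strand to the TATA box TATAAA, the GC box GGGCGG, the AP-1 motif TGANTCA, the E-box CANNTG and the AP-2 motif GCCNNNGGC.
Krt5 (chr15:101712856-101713155, minus strand): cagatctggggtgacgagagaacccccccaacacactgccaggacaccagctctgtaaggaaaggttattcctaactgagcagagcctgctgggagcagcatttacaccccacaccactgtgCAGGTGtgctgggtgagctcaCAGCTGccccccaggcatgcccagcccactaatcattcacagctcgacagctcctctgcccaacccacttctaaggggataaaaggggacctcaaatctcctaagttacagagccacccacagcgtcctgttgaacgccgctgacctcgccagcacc
Krt8 (chr15:102004293-102004592, minus strand): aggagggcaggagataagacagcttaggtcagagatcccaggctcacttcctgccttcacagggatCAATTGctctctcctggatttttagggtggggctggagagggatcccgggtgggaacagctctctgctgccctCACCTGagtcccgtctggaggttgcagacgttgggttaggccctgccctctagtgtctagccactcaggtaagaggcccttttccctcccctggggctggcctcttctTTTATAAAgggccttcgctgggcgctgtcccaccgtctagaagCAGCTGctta
Krt18 (chr15:102027966-102028265, plus strand): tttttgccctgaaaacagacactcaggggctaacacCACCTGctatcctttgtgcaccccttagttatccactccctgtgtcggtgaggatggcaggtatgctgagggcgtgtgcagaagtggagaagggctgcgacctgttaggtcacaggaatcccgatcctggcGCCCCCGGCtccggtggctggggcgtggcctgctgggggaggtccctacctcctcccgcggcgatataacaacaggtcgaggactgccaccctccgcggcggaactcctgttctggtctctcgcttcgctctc
The Krt5 window holds 2 E-boxes and no other match. The Krt8 window holds 3 E-boxes and 2 overlapping TATA matches, 1 on each strand, and the Krt18 window holds 1 E-box and 1 AP-2 match. The TATA matches of Krt8 begin at positions -3 and -1, on the RefSeq start itself, which lies 140 bases from the GENCODE start. Of 32841 RefSeq promoters of this length, 72.32% hold an E-box, 35.67% a GC box, 16.6% the AP-2 motif, 13.62% the TATA box and 7.81% the AP-1 motif. These matches describe the letters of the windows and are not measured binding sites.

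Levels are FPKM, fragment numbers scaled by transcript length and library size, which allow genes to be compared per length. The FPKM of a library summed to between 395678 and 467650, and 17113 to 18505 genes had a value above 0. Depth relative to the deepest library was 0.635 in the 16-week wild type, 0.667 to 0.699 in replicate 0 of TRAMP on PEITC at 16 weeks, the 24-week wild types and the tumor, and 0.854 to 1 in the others. The 16-week wild type library stood apart: its summed level of 7 seminal vesicle genes was 7816 FPKM against at most 8.02 in any other library, and its summed skeletal muscle level was 91.9 FPKM against at most 36.4. Calls of keratins at 16 weeks rest on it, so their values against the 24-week wild types are given as well.

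Of the 52 keratins, 44 had a value above 0 in at least 1 library, 19 were above 0 in all 12, and 15 reached 1 FPKM somewhere. All 8 that were listed at 0 in every library belong to the hair follicle group, whose 24 members had no value above 0.539 FPKM. Genes were tested if their average over all libraries reached 0.5 FPKM, and 14 members did: Krt19, Krt18, Krt8, Krt4, Krt15, Krt7, Krt23, Krt5, Krt17, Krt14, Krt6a, Krt10, Krt80 and Krt78. The other 38 were not tested. Of them, only Krt16 reached 1 FPKM in any library, and the next highest value was 0.884 FPKM, of the epidermal keratin Krt1 in a wild type prostate. The keratins most abundant in every library were the luminal ones, with Krt19, Krt18 and Krt8 together at 88.0% to 92.7% of the summed keratin FPKM.

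**Figure D1:**
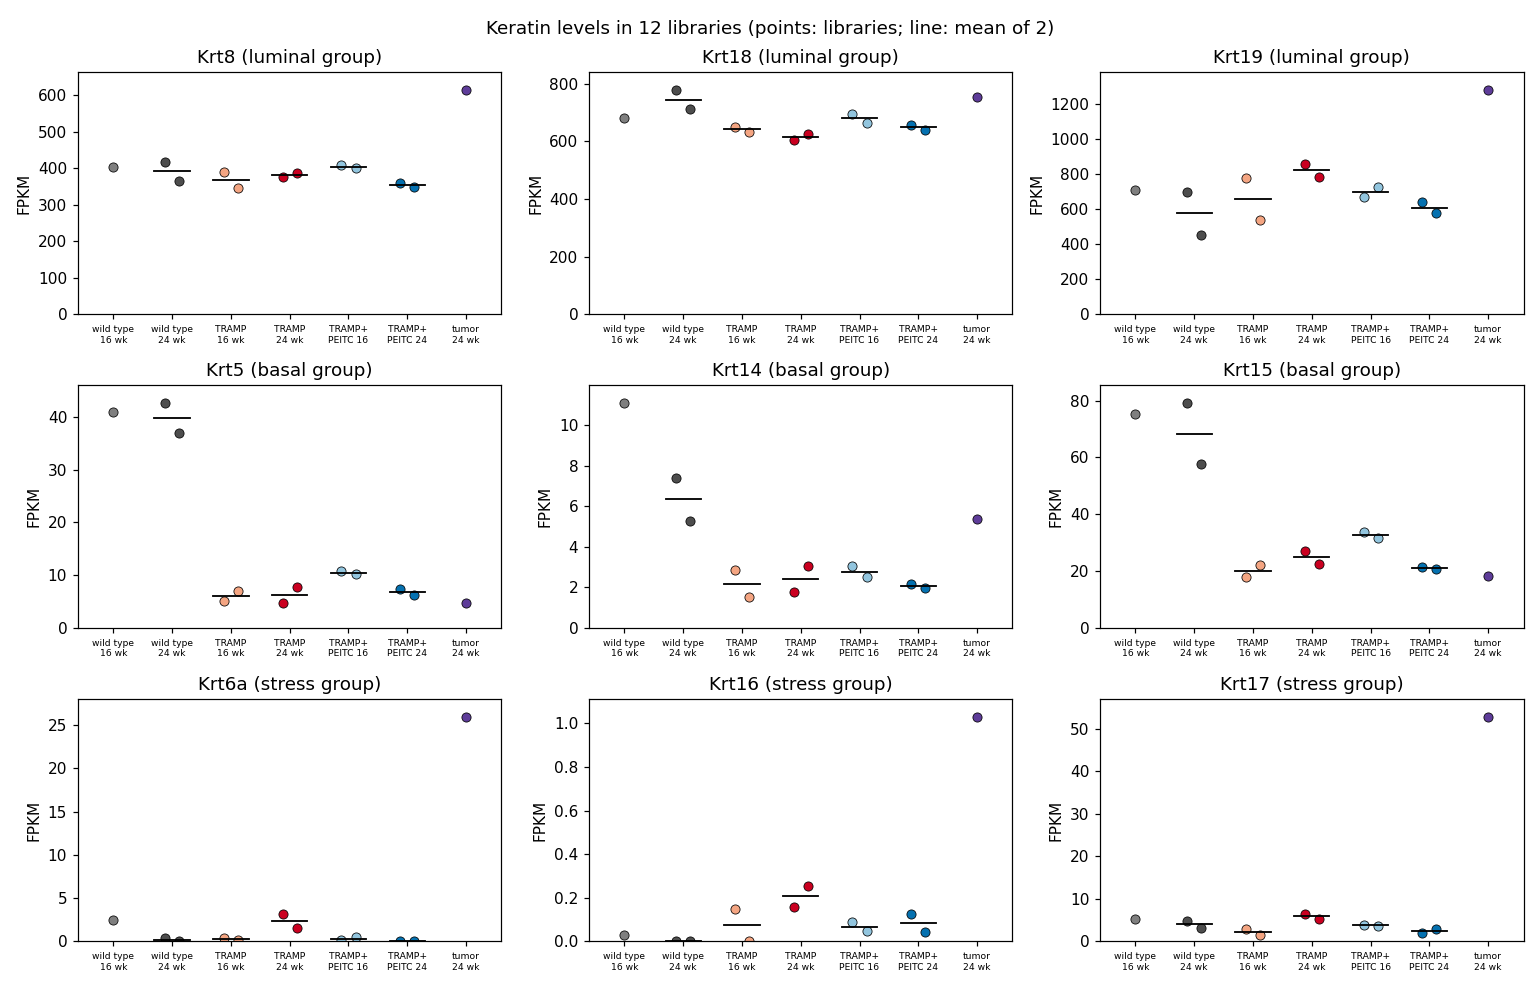
Levels of the 3 luminal, 3 basal and 3 stress keratins in FPKM on linear axes that start at 0, with 1 panel per gene, 1 point per library and a line at the mean of groups with 2 libraries. The wild type points lie above all TRAMP prostates for Krt5, Krt14 and Krt15, and the tumor lies far above the other libraries for Krt6a, Krt16 and Krt17.

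Of the luminal keratins only Krt18 passed between TRAMP and wild type prostates at 24 weeks, and the result for each of them depended on scaling. Krt18, the type I partner of Krt8, stood at 605.0 and 624 FPKM in 24-week TRAMP prostates and at 779 and 711 in 24-week wild type prostates. Both TRAMP libraries lay below both wild types, and Krt18 fell by 0.28 on the log2(FPKM + 1) scale on which all changes are given (SE 0.07, limma with Benjamini-Hochberg adjustment, adjusted p = 0.0138). This small change depended on scaling: it was -0.08 with FPKM rescaled to the same sum (adjusted p = 0.333) and 0.10 after quantile normalization (adjusted p = 0.271), and without replicate 0 of the 24-week wild type it was -0.21 (adjusted p = 0.0878). Krt8, the main type II keratin of simple epithelium, measured 377 and 387 FPKM in TRAMP and 418 and 366 in wild type, which overlap, with a log2 difference of -0.04 (unadjusted 95% interval, as throughout, -0.23 to 0.16; adjusted p = 0.750). After quantile normalization the Krt8 difference was 0.36 (adjusted p = 0.00575), so no direction is given for it. Reads of Krt8 are not all unique to it, since 26.9% of the 50-base stretches of its transcript occur in another gene, Krt8-ps.

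Krt19, the smallest type I keratin and a partner of Krt8, was the most variable luminal keratin between replicates. It measured 861 and 784 FPKM in 24-week TRAMP prostates and 697 and 456 in wild type. The groups did not overlap, but the difference of 0.54 (95% interval 0.04 to 1.05) did not pass (adjusted p = 0.0769). It passed under the 3 other scalings, from 0.65 (adjusted p = 0.0400) to 0.94 (adjusted p = 0.00983), and at 0.85 without replicate 0 of the wild type (adjusted p = 0.0204). At 16 weeks none of the 3 luminal keratins passed: Krt19 differed by -0.13, Krt18 by -0.08 and Krt8 by -0.13. Against the 24-week wild types Krt19 differed by 0.20 (adjusted p = 0.490), Krt8 by -0.09 (adjusted p = 0.417) and Krt18 by -0.21, which passed (adjusted p = 0.0401). After quantile normalization the 16-week value of Krt18 passed in the other direction (0.27, adjusted p = 0.0401).

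Basal keratins were lower in TRAMP than in wild type prostates at both ages, and all 3 passed the test at both. Krt5, the type II keratin of basal cells, measured 42.5 and 36.9 FPKM in the 24-week wild types and 41.0 in the 16-week wild type. In TRAMP prostates on control diet it measured 4.67 and 7.71 FPKM at 24 weeks and 5.15 and 6.97 at 16 weeks. The wild type values lay close together and far above every TRAMP value, and the ratio of mean FPKM was 6.42 at 24 weeks and 6.76 at 16 weeks. Krt5 fell by 2.53 at 24 weeks (SE 0.21, adjusted p = 7.37e-05) and by 2.58 at 16 weeks (SE 0.25, adjusted p = 0.000364), and the difference between the ages was 0.05 (95% interval -0.70 to 0.81). Against the 24-week wild types 16-week TRAMP differed by -2.54 for Krt5 (adjusted p = 7.08e-05), by -1.71 for Krt15 (adjusted p = 0.000128) and by -1.23 for Krt14 (adjusted p = 0.00593).

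Krt15, a type I keratin of basal and progenitor cells, measured 79.0 and 57.5 FPKM in the 24-week wild types against 27.2 and 22.6 in TRAMP. At 16 weeks the wild type had 75.2 FPKM and the TRAMP libraries 17.9 and 22.1. Again no TRAMP value reached a wild type value, and Krt15 fell by 1.41 at 24 weeks (SE 0.16, adjusted p = 0.00033) and by 1.87 at 16 weeks (SE 0.20, adjusted p = 0.000465). Krt14, the classical partner of Krt5, was scarcer, at 7.41 and 5.29 FPKM in the 24-week wild types, 1.77 and 3.06 in TRAMP, 11.1 in the 16-week wild type and 2.85 and 1.52 in TRAMP of that age. The groups did not overlap, and it fell by 1.12 at 24 weeks (SE 0.25, adjusted p = 0.00875) and by 1.96 at 16 weeks (SE 0.31, adjusted p = 0.00261). Without replicate 0 of the 24-week wild type the change of Krt14 was -0.91 (adjusted p = 0.0556). Krt5 and Krt15 passed at both ages under every alternative run, and Krt14 did so at 16 weeks.

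Of the 14 tested keratins, 7 passed at 24 weeks, 3 higher and 4 lower, against a background of 45.0% of all tested genes (23.0% higher, 22.0% lower). At 16 weeks 6 passed, all lower, against a background of 33.6% (15.4% lower). Against the 24-week wild types 6 also passed (background 42.1%), but they were not the same 6: Krt5, Krt14, Krt15 and Krt18 were lower and Krt78 and Krt80 higher, while Krt6a, Krt17 and Krt7 did not pass. That all 6 were lower therefore rests on the 16-week wild type library. Groups that do not overlap are common with so few libraries: they were seen for 11 of the 14 at 24 weeks (background 73.2%) and 12 at 16 weeks (background 84.6%). The shares at both ages are close to the background. The all-gene median was -0.00 at 24 weeks and 0.17 with FPKM rescaled to the same sum, and 0.02 and 0.18 at 16 weeks. Called genes that were higher made up 51.1% at 24 weeks on the deposited scale, 76.2% after rescaling to the same sum, 66.6% with a sum that leaves out the 50 most abundant genes and 44.0% after quantile normalization. For 16 weeks these shares were 54.1%, 77.7%, 70.3% and 51.6%. Measured against these shifts, Krt5, Krt14 and Krt15 stayed lower at both ages under every scaling.

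**Figure D2:**
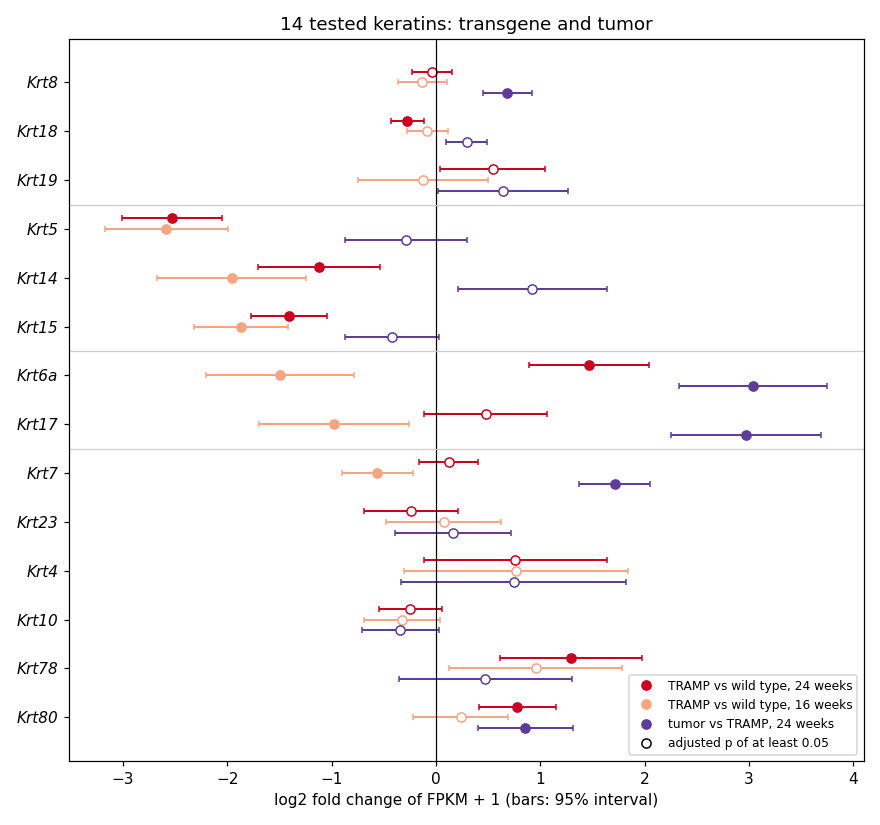
Log2 fold changes on FPKM + 1 of the 14 tested keratins (points) with unadjusted 95% intervals (bars) for TRAMP against wild type at 24 and 16 weeks and for the tumor against 24-week TRAMP prostates; filled points have an adjusted p under 0.05 and open points do not. Krt5, Krt14 and Krt15 lie below 0 in TRAMP at both ages, and Krt6a and Krt17 lie near 3 in the tumor.

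Sums of the groups show the same shift on the linear scale. For each 100 FPKM of the 3 luminal keratins, the 3 basal keratins had 6.50 to 7.10 FPKM in the 3 wild type libraries. The 8 TRAMP prostates had 1.42 to 2.70 and the tumor 1.07, so wild type did not overlap with either. Krt5 for each 100 FPKM of Krt8 was 10.1 to 10.2 in wild type and 1.24 to 2.65 in TRAMP prostates. Within the basal group the ratio of Krt15 to Krt5 was 1.56 to 1.86 in wild type and 2.86 to 5.83 in TRAMP prostates, so the linear level of Krt5 fell by a larger factor than that of Krt15. The ratio of type I to type II keratin FPKM was between 2.76 and 3.31 in all 11 prostates, without a split between wild type (2.76 to 2.97) and TRAMP. In bulk tissue, fewer basal cells and less keratin RNA in each basal cell cannot be told apart.

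**Figure D3:**
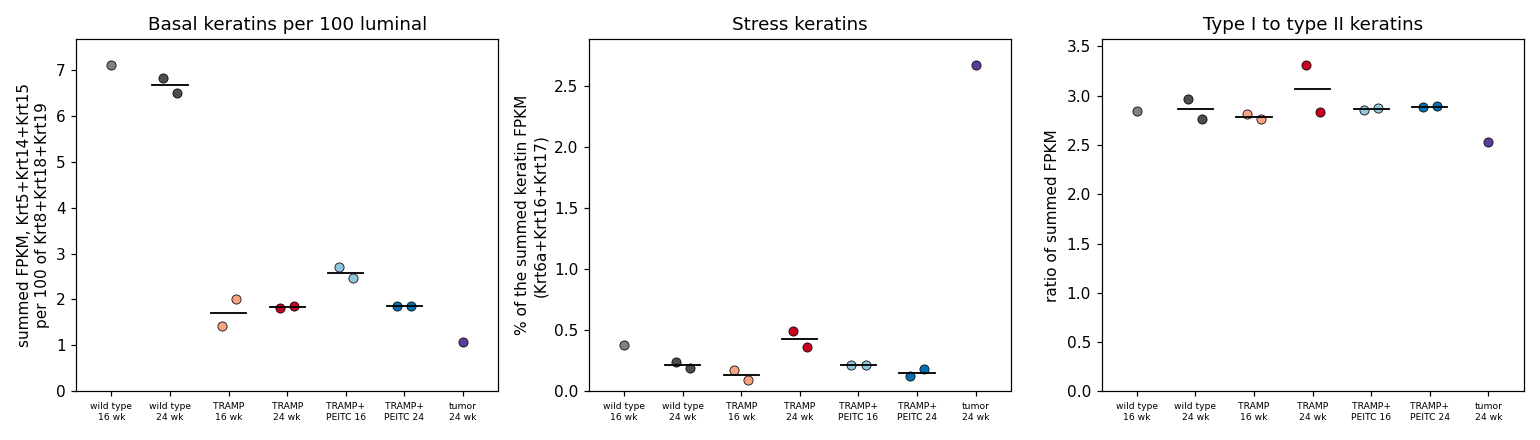
Ratios of summed keratin FPKM in each library by group, with 1 point per library and a line at the mean of groups with 2: basal keratins for each 100 FPKM of luminal ones, stress keratins as a percent of all keratin FPKM, and type I over type II keratins. The wild type points are separate from all TRAMP points in the first panel, and the tumor point stands alone in the second at 2.67%.

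Stress keratins were low in all prostates. Together they made up 0.0951% to 0.492% of the keratin FPKM there, against 2.67% in the tumor. Krt6a, a type II keratin of wound edges, measured 3.13 and 1.59 FPKM in 24-week TRAMP prostates, 0.346 and 0.0399 in the wild types of that age, 0.404 and 0.124 in 16-week TRAMP and 2.53 in the 16-week wild type. It was therefore high in 24-week TRAMP on control diet, in the 16-week wild type and in the tumor, and below 0.5 FPKM in the other 8 libraries. Krt6a rose by 1.47 at 24 weeks (SE 0.25, adjusted p = 0.00242) and fell by 1.49 at 16 weeks (SE 0.31, adjusted p = 0.00809). The 16-week fall rests on the library with seminal vesicle and skeletal muscle RNA: against the 24-week wild types the value was 0.09 (adjusted p = 0.806).

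The difference between the 2 TRAMP effects was 2.96 for Krt6a (SE 0.40, adjusted p = 0.0291), the only one of the 14 to pass, against a background of 0.366%. With the 24-week wild types as control for both ages it was 1.38 (adjusted p = 0.178). It also missed the threshold when either 16-week TRAMP library was left out (2.80 to 3.12, adjusted p = 0.0527 to 0.103) or either 24-week wild type library (2.77 to 3.14, adjusted p = 0.0553 to 0.110). Near-identical sequence limits Krt6a: 49.5% of its 50-base stretches occur in another gene, 43.6% in Krt6b. Fragments from these stretches may have been assigned to either gene or left out, and the labels do not say which. Krt6b was at most 0.620 FPKM, in the tumor.

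Krt17, a type I keratin of hair follicles and wounds, measured 6.48 and 5.35 FPKM in 24-week TRAMP prostates and 4.86 and 3.19 in wild type. TRAMP lay above wild type, with a difference of 0.47 that did not pass (adjusted p = 0.163). At 16 weeks the TRAMP libraries had 3.02 and 1.46 FPKM against 5.18 in the wild type, and Krt17 fell by 0.98 (SE 0.31, adjusted p = 0.0439). That call was lost in 7 of 12 alternatives, including the 24-week wild types as control (-0.66, adjusted p = 0.0700) and leaving out replicate 1 of 16-week TRAMP (-0.62, adjusted p = 0.134). Krt16, the wound keratin that pairs with Krt6a, was too low to test: it ranged from 0 to 0.253 FPKM in the prostates, which corresponds to at most 12 fragments as read from the steps between low values. Sequence is shared here as well, since 37.6% of the 50-base stretches of Krt16 occur in another gene.

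Of the other detected keratins, Krt78 and Krt80 rose in TRAMP at 24 weeks. Krt78, a type II keratin of stratified epithelium, measured 1.46 and 2.21 FPKM in TRAMP and 0.187 and 0.105 in wild type, a rise of 1.29 (SE 0.29, adjusted p = 0.0089). Without replicate 2 of TRAMP (1.10, adjusted p = 0.0522) or replicate 1 of wild type (1.24, adjusted p = 0.0500) Krt78 missed the threshold, as it did with the replicate number as a block (0.92, adjusted p = 0.0717). Krt80, a type II keratin found near desmosomes of differentiating cells, measured 1.60 and 1.91 FPKM in TRAMP and 0.440 and 0.787 in wild type, a rise of 0.78 (SE 0.16, adjusted p = 0.00582). Both lay above wild type in every 24-week TRAMP library, but their levels were low. At 16 weeks the Krt78 difference was 0.96 (adjusted p = 0.0739) and that of Krt80 was 0.24 (adjusted p = 0.380). With the replicate number as a block the 16-week difference passed for Krt78 (1.13, adjusted p = 0.0397). Against the 24-week wild types they were 1.44 (adjusted p = 0.00564) and 0.54 (adjusted p = 0.0291).

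Krt7, a simple and transitional epithelium keratin, was between 16.7 and 31.1 FPKM in all 11 prostates. It differed by 0.12 at 24 weeks (adjusted p = 0.443) and fell by 0.56 at 16 weeks (SE 0.15, adjusted p = 0.0221), where the wild type library held the highest prostate value. Against the 24-week wild types the 16-week value of Krt7 was -0.09 (adjusted p = 0.596), without replicate 1 of 16-week TRAMP it was -0.47 (adjusted p = 0.0809), and with the replicate number as a block it was -0.55 (adjusted p = 0.0605). Krt4, a mucosal type II keratin, measured 47.8 and 92.3 FPKM in 24-week TRAMP and 54.0 and 27.8 in wild type, and its difference of 0.76 did not pass (adjusted p = 0.139). At 16 weeks it was 0.77 (adjusted p = 0.238), and 0.99 with the replicate number as a block (adjusted p = 0.0472). Without replicate 0 of TRAMP the Krt4 difference was 1.23 (adjusted p = 0.0449). Krt23, at 18.6 to 30.1 FPKM, and the suprabasal keratin Krt10, at 2.33 to 3.86 FPKM in the prostates, did not pass in either age. Krt10 passed at 24 weeks after quantile normalization (-0.48, adjusted p = 0.0218).

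The tumor had the highest level of Krt19, Krt8, Krt7, Krt4, Krt17, Krt6a, Krt16 and Krt80 of the 12 libraries. Krt17 measured 52.8 FPKM there, against 6.48 and 5.35 in 24-week TRAMP prostates, and exceeded their mean 8.94 times. Krt6a measured 25.9 FPKM, 10.99 times the TRAMP mean. Krt16 reached 1.03 FPKM, about 36 fragments. The ratio of Krt17 to Krt5 was 11.1 in the tumor and at most 1.39 in the prostates.

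Against 24-week TRAMP prostates 5 of the 14 tested keratins passed, all higher, with a background of 11.8% (5.59% higher), and 13 lay outside the range of the 2 TRAMP libraries (background 79.5%). They were Krt6a (3.04, SE 0.31, adjusted p = 0.00314), Krt17 (2.97, SE 0.31, adjusted p = 0.00346), Krt7 (1.71, SE 0.15, adjusted p = 0.00176), Krt80 (0.86, SE 0.20, adjusted p = 0.0309) and Krt8 (0.69, SE 0.10, adjusted p = 0.00806). Krt8 measured 614 FPKM and Krt7 81.3 in the tumor. Krt19, at 1281 FPKM, differed by 0.64 (adjusted p = 0.163) and Krt18, at 755 FPKM, by 0.30 (adjusted p = 0.0620). Krt80 missed the threshold without replicate 0 (adjusted p = 0.0938) or replicate 2 (adjusted p = 0.0530) of TRAMP. The tumor is a single library whose spread was borrowed from the groups with 2, and with the tumor and TRAMP libraries alone in the fit none of the 5 passed.

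The basal keratins of the tumor did not pass against 24-week TRAMP. Krt5 measured 4.76 FPKM, inside the range of 24-week TRAMP prostates, with a difference of -0.29 (adjusted p = 0.512). Krt15 measured 18.3 FPKM, below both of them, with a difference of -0.42 (adjusted p = 0.206). Krt14 measured 5.37 FPKM, above all TRAMP prostates, with a difference of 0.92 that did not pass (adjusted p = 0.0949). The ratio of Krt5 to Krt14 was 0.887 in the tumor and 1.81 to 6.97 in the prostates. Reads of Krt14 are not all unique to it, since 14.4% of the 50-base stretches of Krt14 occur in another gene, mostly Krt16 and Krt17. Against the 24-week wild types 11 of 14 passed, 8 higher and 3 lower, with a background of 52.2% (26.4% higher, 25.8% lower), and 11 lay outside the wild type range (background 89.9%). Krt5 (-2.82), Krt15 (-1.83) and Krt10 (-0.59) were the lower ones, Krt6a (4.51), Krt17 (3.44), Krt7 (1.83), Krt78 (1.77), Krt80 (1.64), Krt4 (1.50), Krt19 (1.18) and Krt8 (0.65) the higher ones, and Krt14 differed by -0.19 (adjusted p = 0.630). Krt10 missed the threshold without replicate 0 of wild type (-0.44, adjusted p = 0.0573), and Krt4 missed it without replicate 1 (1.04, adjusted p = 0.112). Higher genes made up 50.6% of all calls in that comparison, 66.4% after rescaling to the same sum, 58.9% without the 50 most abundant genes and 44.2% after quantile normalization.

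PEITC diet changed no keratin past the threshold at either age. In the comparison at 24 weeks 0 of 14 passed with limma (background 0%), with 3 at an unadjusted p under 0.05 (9.47% of all genes), and 8 did not overlap between the diets (background 44.6%). Krt6a measured 0.0883 and 0.0898 FPKM on PEITC against 3.13 and 1.59 on control diet, about 6 fragments in each PEITC library against 226 and 109. The groups did not overlap, and the difference was -1.59 (SE 0.25, adjusted p = 0.415). It passed only when replicate 2 of the control diet was left out (-1.92, adjusted p = 0.0224). Krt17 measured 2.09 and 2.97 FPKM on PEITC against 6.48 and 5.35, a difference of -0.98 (adjusted p = 0.465), and Krt7 differed by -0.39 (adjusted p = 0.474). Replicate 1 on PEITC at 24 weeks stood apart in 5 neuroendocrine genes, which summed to 31.7 FPKM there and to 1.03 to 2.57 in the other TRAMP prostates. Without that library the difference was -1.59 for Krt6a, -1.16 for Krt17 and -0.29 for Krt7, none of which passed.

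At 16 weeks 0 of 14 passed with limma (background 0.00748%), with 5 at an unadjusted p under 0.05 (10.1% of all genes), all higher on PEITC, and 8 did not overlap (background 42.2%). Krt5 measured 10.8 and 10.1 FPKM on PEITC against 5.15 and 6.97, above both control diet libraries and below every wild type, a difference of 0.71 (95% interval 0.23 to 1.19; adjusted p = 0.438). Krt15 measured 33.9 and 31.6 FPKM on PEITC against 17.9 and 22.1, a difference of 0.69 (95% interval 0.32 to 1.06; adjusted p = 0.438). The basal sum for each 100 FPKM of luminal keratins was 2.70 and 2.46 on PEITC and 1.42 and 2.01 on control diet. Replicate 1 on PEITC also held the highest smooth muscle sum of the TRAMP prostates, 712 FPKM against 295 to 389 in the others, and the part of this in the basal keratin values was not tested. Krt17, Krt7 and Krt80 differed by 0.61, 0.36 and 0.39 (adjusted p = 0.481, 0.438 and 0.472).

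Krt6a, Krt17 and Krt7 lay lower on PEITC at 24 weeks, and at 16 weeks Krt17 and Krt7 lay higher. The difference of the PEITC effect between the ages passed for 0 of 14 with limma (background 0.00748%), with 4 at an unadjusted p under 0.05 (12.9% of all genes). It was -1.62 for Krt6a, -1.58 for Krt17 and -0.75 for Krt7, each with an adjusted p of 0.305, and -0.92 for Krt15 (adjusted p = 0.306). As the mean of both ages 0 of 14 passed with limma (background 0%), with 2 at an unadjusted p under 0.05 (6.65% of all genes). They were Krt6a, which differed by -0.78 (95% interval -1.19 to -0.37, adjusted p = 0.735), and Krt5, which differed by 0.43 (95% interval 0.10 to 0.77, adjusted p = 0.735). For the luminal keratins the interval was -0.12 to 0.15 for Krt8, -0.03 to 0.19 for Krt18 and -0.52 to 0.20 for Krt19, the most abundant and least precise of them.

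**Figure D4:**
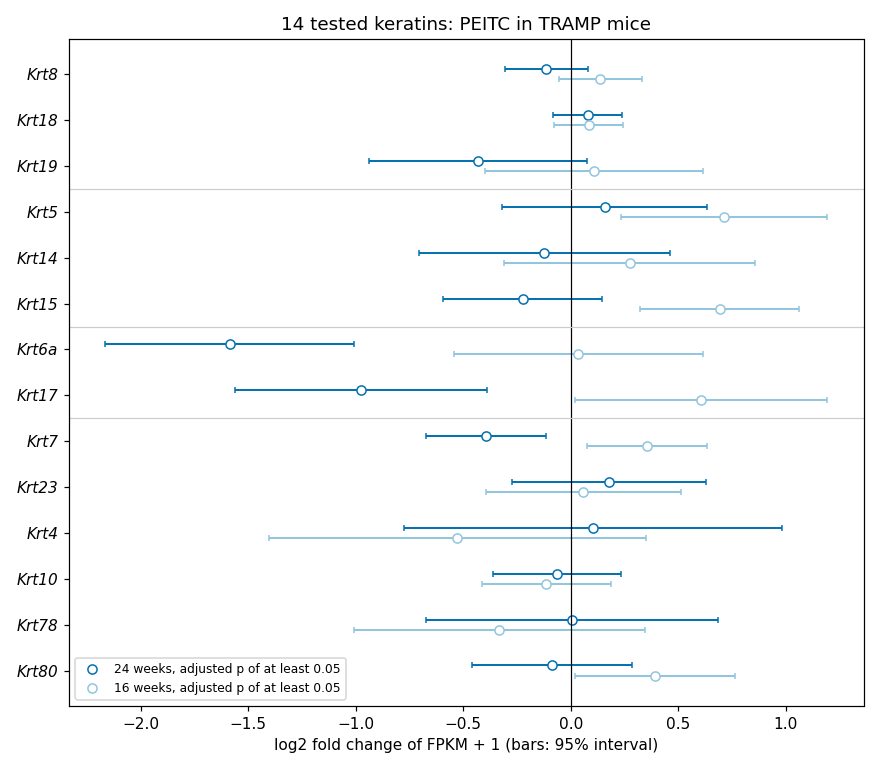
Log2 fold changes on FPKM + 1 of the 14 tested keratins (points) with unadjusted 95% intervals (bars) for PEITC against control diet in TRAMP prostates at 24 and 16 weeks; all points are open because no adjusted p was under 0.05. Krt6a lies lowest, at -1.59 at 24 weeks, and Krt5 and Krt15 lie highest, at 0.71 and 0.69 at 16 weeks.

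Between TRAMP prostates on control diet at 24 and 16 weeks 0 of 14 passed with limma (background 0.00748%), with 2 at an unadjusted p under 0.05 (16.9% of all genes), and 8 did not overlap (background 46.3%). Krt6a differed by 1.38 and Krt17 by 1.13, each with an adjusted p of 0.178. Both 24-week libraries were above both 16-week ones for these 2 stress keratins. Without replicate 2 at 24 weeks Krt6a differed by 1.72 (adjusted p = 0.0223). The comparisons of 24-week TRAMP control diet with PEITC, with 16 weeks, with wild type and with the tumor share the same 2 control diet libraries, which hold Krt6a values of 3.13 and 1.59 FPKM.

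Among basal genes other than keratins more fell than rose, but their summed levels overlapped at 24 weeks. The sum of the 12 genes was 152 to 157 FPKM in the 24-week wild types. It was 145 to 153 FPKM in 24-week TRAMP on control diet and 243 in the tumor. Of 12 tested in TRAMP against wild type at 24 weeks, 7 fell and 3 rose (median -0.56, against -0.00 over all genes), and at 16 weeks 7 fell and 1 rose (median -0.73, against 0.02). With the 24-week wild types as control for the 16-week TRAMP libraries, 8 fell and 2 rose (median -0.55, against 0.00). Over all tested genes 45.0% were called at 24 weeks (22.0% lower), 33.6% at 16 weeks (15.4% lower) and 42.1% with that control. Trp63, the transcription factor of basal cells, went from 5.01 and 4.74 FPKM in wild type to 0.408 and 0.762 in TRAMP and fell by 1.90 (SE 0.13, adjusted p = 3.16e-05). The P-cadherin gene Cdh3 fell by 1.25 and the laminin chain gene Lamb3 by 1.15, while Sfn, an epithelial 14-3-3 protein gene, rose by 1.14. Mean levels of the integrin genes Itga3 (28.7 against 16.8 FPKM) and Itgb4 (27.8 against 20.0) were also higher in 24-week TRAMP than in wild type. In the tumor 5 of the 12 rose against TRAMP and none fell (background 11.8%, with 5.59% higher). They were led by Lamb3 (1.60) and Sfn (1.42), and Trp63, at 0.451 FPKM, differed by -0.12 (adjusted p = 0.675).

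Of 12 luminal genes other than keratins, 5 fell and 1 rose at 24 weeks (median -0.07), among them Spdef, an epithelial transcription factor gene, which fell by 0.51, and Cd24a, a surface protein gene, which fell by 0.43. Of 12 genes that link keratin filaments to junctions, 2 fell and 1 rose (median 0.10): Pkp1, a plakophilin of desmosomes, fell by 1.57, Perp, a desmosomal membrane protein gene, by 1.33, and Evpl, the envoplakin gene, rose by 0.39. Of 10 tested intermediate filament genes other than keratins, 2 rose and 2 fell, with a median of 0.04. The nuclear lamins Lmnb1 (1.83) and Lmnb2 (0.69) rose, and Nefl (-1.82) and Synm (-0.94) fell. Over all tested genes 45.0% were called at 24 weeks (23.0% higher, 22.0% lower). The called shares of the luminal and filament lists were near 45.0%, and that of the linkers was below it. Vim, the mesenchymal intermediate filament gene, varied from 23.8 to 56.7 FPKM between the 24-week TRAMP libraries and differed by 0.78 (adjusted p = 0.244).

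Markers of other cell types moved with these comparisons too. The summed smooth muscle level (7 genes) was 824 to 978 FPKM in wild type. It was 295 to 712 in TRAMP prostates, and the tumor had 281. Urothelial genes (5, of which Upk3a and Upk3bl never reached 0.5 FPKM) summed to 521 to 645 FPKM in wild type, against 218 to 353 for TRAMP prostates and 241 for the tumor. Upk1a carried this difference, at 443 to 583 FPKM in wild type and 143 to 253 in TRAMP prostates, while Upk1b had 54.9 to 74.5 and 63.8 to 118 FPKM. Upk2 was low, at 2.53 to 3.66 FPKM in wild type and 1.23 to 2.41 in TRAMP prostates. For 5 prostate secretory genes the sums were 23493 to 27446, 3130 to 6891 and 2066 FPKM. Urothelium also expresses Krt5, Krt7 and Krt19. Leukocyte genes (7) summed to 7.89 to 8.18 FPKM in wild type, against 12.2 to 33.7 for TRAMP prostates and 24.7 for the tumor. Cornified epidermis genes (10 measured) summed to 67.8 FPKM in the tumor, 60.1 of it from Sprr1a, against 7.77 to 28.8 in TRAMP prostates and 9.13 to 15.9 in wild type; Ivl, Sprr1b, Tgm3, Dsg1a and Dsc1 never reached 0.5 FPKM. The part of these cell types in the keratin differences was not tested.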

How the data were processed

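Deposited FPKM values of 24421 genes in 12 libraries were used. Per the submitters' processing notes, HISAT2, Picard, featureCounts and DESeq2 were used with the mm10 genome; the versions, each tool's role, the gene annotation and the library total behind the authors' FPKM are not stated in the labels used here. FPKM are not counts, so no count test was run. Values were converted to log2(FPKM + 1), and 13375 genes averaging at least 0.5 FPKM entered limma 3.58.1 (R 4.3.3), with a mean for each of 7 groups, 5 residual degrees of freedom and a variance trend. The two-sided p-values were adjusted over all tested genes by the method of Benjamini-Hochberg; an adjusted p under 0.05 was called. Changes of genes with low FPKM are understated on this scale. The spread of groups with 2 libraries stood in for groups with 1. In simulated data 100 genes were changed by 1 and 100 by 2 on the log2 scale in each comparison. All had a mean log2(FPKM + 1) above 1. Of those changed by 1, 85% were recovered for TRAMP against wild type at 24 weeks, 87% for PEITC at 16 weeks and 83% for the tumor. With so many changed genes the adjustment is looser than in the PEITC comparisons, where 0 or 1 of all genes passed. The 87% therefore does not tell how often a real PEITC effect of that size would be called. In the data 45.0% of all genes passed for TRAMP at 24 weeks and 11.8% for the tumor, far more than were changed in the simulation. The 85% and 83% thus hold for the simulated setting only.

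Samples were grouped by genotype, diet and age as the labels give them. The members and gene lists were chosen with earlier results of these data known. Every keratin with a mean of at least 0.5 FPKM is named, with those reaching 1 FPKM in any library; of the other lists, the called genes that changed most at 24 weeks were named, at most 4 a list, plus Trp63 and Vim; some genes that this rule took are left out here. Krt1, Krt6b, Itga3, Itgb4, the urothelial and cornified genes named, and the tumor changes of Lamb3 and Sfn were picked with their values in view. The relative depth and fragment numbers come from the steps between low values (tolerance 0.1 of a step). Shared sequence is the share of 50-base stretches of the GENCODE M21 transcripts. RefSeq promoters were found for 35 keratins. Figures used Python 3.11.15 and matplotlib 3.10.9. Other pseudocounts, filters, scalings, fits and left-out libraries were tried.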

Additional observations from a re-analysis of the deposited data

Results flagged for a closer look

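Krt6a differed between the ages in its TRAMP effect. The difference between the change at 24 weeks (1.47) and that at 16 weeks (-1.49) was 2.96 on the log2 scale (SE 0.40, limma with Benjamini-Hochberg adjustment, adjusted p = 0.0291), which was singled out because the test of the difference itself passed. The 16-week control is 1 library, at 2.53 FPKM of Krt6a, and carried 7816 FPKM of seminal vesicle genes; with the 24-week wild types as control the difference was 1.38 (adjusted p = 0.178).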

How the results depend on the processing

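Of 30 called keratin results, 16 were called in the same direction under every alternative that could be run, 13 lost the call under at least 1 and 2 changed direction under at least 1. Of 110 not called, 13 were called under at least 1, and 42 changed sign under at least 1 without a call on either side. The changes of direction with a call on at least 1 side were for Krt8 (0.36) and Krt18 (0.10) at 24 weeks and Krt18 (0.27) at 16 weeks after quantile normalization, and for Krt6a at 16 weeks against the 24-week wild types (0.086). The cause was not tested. The count of called keratins moved by over 1.5 times as follows. Without a filter it was 12 for TRAMP against wild type at 24 weeks, 2 for the difference of the TRAMP effect and 17 for the tumor against wild type; more keratins were tested there. For the difference of the TRAMP effect it was 0 with a pseudocount of 0.1, 0 with the compared groups alone, 0 with the 24-week wild types as control, and 0 to 1 with each library left out. For the tumor against TRAMP it was 0 with the compared groups alone. Leaving out each library gave 0 to 1 for PEITC at 24 weeks, for the difference of the PEITC effect and for 24 against 16 weeks; in each the 1 was Krt6a without replicate 2 of 24-week TRAMP.

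With the replicate number as a block, 0 keratins were called in each PEITC comparison, where 24-week TRAMP and PEITC share only number 0; over all genes the block called 65 at 24 weeks, 0 at 16 weeks, 3 for the mean and 49 for the difference, against 0, 1, 0 and 1 without it. With 2 libraries a group the numbers only name samples: over the 6 pairs of groups that hold numbers 0 and 1, deviations of same-numbered libraries correlated at -0.31 (PEITC and control diet at 16 weeks) to 0.28 (16-week TRAMP and 24-week wild type). With crossed numbers at 16 weeks, tried after seeing the data, 0 keratins were called. Other groups compared share at most number 0; a block added after seeing the data called 6 keratins for TRAMP against wild type at 24 weeks, 6 at 16 weeks (without Krt7 and Krt17, with Krt4 and Krt78), 1 for the difference of the TRAMP effect and 0 for 24 against 16 weeks, with 3986, 3991, 46 and 99 of all genes called against 6014, 4490, 49 and 1. No paired analysis was possible for the tumor because its label carries no replicate number. Depth limits the keratins under 1 FPKM: Krt16 had 0 to 12 fragments in each prostate.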
